A study of Mus musculus with 5 samples.

Results

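Pulmonary surfactant is made by alveolar type 2 (AT2) cells, which package lipid and hydrophobic proteins into lamellar bodies, secretory organelles related to lysosomes, and release them into the airspace. The genes described here are 10 that serve this pathway, *Sftpa1*, *Sftpb*, *Sftpc*, *Sftpd*, *Napsa*, *Ctsh*, *Abca3*, *Lamp3*, *Slc34a2* and *Lyz2*, taken by name from the 31053 genes listed. They encode surfactant proteins A, B, C and D, proteases that process the precursors of surfactant proteins B and C, proteins of the lamellar body, a phosphate transporter of the AT2 cell surface and a lysozyme that AT2 cells share with macrophages. Surfactant proteins B and C are small hydrophobic proteins that help to spread lipid at the air-liquid interface, and surfactant proteins A and D are collectins, soluble lectins that bind microbes.

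The counts come from 5 droplet libraries of adult mouse lung, with 5′ ends sequenced, on a C57BL/6 background. Mice labelled Itgb1 iKO, called β1 AT2-KO below, carried Itgb1 fl/fl alleles, a reverse tetracycline transactivator driven by an SP-C promoter and a Tet-O-Cre, and had drunk doxycycline that was withdrawn before injury. Controls, labelled Itgb1 fl/fl, were littermates without transactivator and Cre that were given the same doxycycline, so all groups carry the floxed alleles. Lungs were taken 7 days after intratracheal LPS (β1 fl/fl and β1 AT2-KO), 7 days after PBS (β1 AT2-KO) and 21 days after LPS (β1 fl/fl and β1 AT2-KO). Uninjured β1 fl/fl lungs were not analysed here. Viable cells without CD45 and Ter119 were sorted, and sorted EPCAM+ cells were added to the day 21 libraries. The transactivator is driven by the promoter of a gene described here, *Sftpc*, which directs recombination to cells in which that promoter is active.

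Each condition is 1 library that pools several mice, and 3 hashtag antibodies were in use per library. Each hashtag is called a mouse below and counted as 1 replicate, although the labels hold no map from hashtags to mice and 1 hashtag of the day 21 β1 fl/fl library carries RNA of both sexes, so n = 3 counts hashtags. Library and condition therefore cannot be told apart, and the p-values below measure the spread between mice of a pooled library. Levels are given as CPM, UMIs (unique molecular identifiers, each standing for 1 captured RNA molecule) of a gene per 1000000 UMIs, not scaled by length because each molecule is counted once at its 5′ end. Cells kept had at least 700 genes and 0.1 to 15% mitochondrial UMIs. AT2 cells were taken by a gate of *Sftpc* at 5% or more of UMIs, at least 1 *Epcam* UMI and no UMI of *Cdh5*, *Pecam1* or *Col1a2*. Endothelial cells, in which surfactant protein transcripts were taken to be absent, needed at least 2 UMIs of *Cdh5* and *Pecam1* and none of *Epcam* or *Col1a2*. They were used as the level that free RNA in the droplets reaches, except for *Abca3*. Its endothelial level, relative to AT2 cells, was above that of *Sftpc* in every library, as given below.

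The libraries held 2224 to 8671 kept cells. The AT2 gate held 119 day 7 β1 fl/fl, 355 day 7 β1 AT2-KO, 26 PBS β1 AT2-KO, 176 day 21 β1 fl/fl and 1240 day 21 β1 AT2-KO cells, with medians of 7497 to 11131 UMIs per cell. Since *Sftpc* sets the gate, its level there is bounded from below. Just above the 5% limit, at 5 to 10%, lay 10, 49, 2, 15 and 112 epithelial cells in that order, and just below it, at 1 to 5%, lay 1, 13, 0, 1 and 9. AT2 markers outside the 10 genes, summed, stood at 13371 to 32122 CPM in the gate. Of 38699 distinct barcodes, 795 occurred in more than 1 library.

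Some mice stand apart from their labels or share a sex with their group. In mouse 1 of the PBS β1 AT2-KO library, with 4 AT2 cells, *Itgb1* stood at 237 CPM in AT2 cells against 90.1 and 93.2 in mice 2 and 3, and *Abca3* at 158 against 1292 and 1371. In its endothelial cells *Abca3* stood at 41.9 against 142 and 164, and *Xist* at 205 against 10.4 and 7.10. All day 7 β1 fl/fl mice had *Xist* (338 to 349 CPM in endothelial cells) and no Y-linked UMI, and all day 7 LPS β1 AT2-KO mice had Y-linked UMIs (161 to 172) and no *Xist* UMI in these cells, so sex and genotype cannot be told apart at day 7. At day 21 mouse 1 of the β1 AT2-KO library had *Xist* at 232 and Y-linked genes at 15.5, mice 2 and 3 had *Xist* at 28.7 and 24.3 with Y-linked genes at 124 and 156, and mouse 1 of the β1 fl/fl library had both (67.4 and 113). Mice 2 and 3 of the β1 fl/fl library had Y-linked genes at 1.95 and 0. Sex and genotype are thus only partly separable at day 21.

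Mice entered the tests with at least 5 gated cells, so all 3 mice of each LPS group entered and the PBS group entered with mouse 3 alone. The targeted gene, *Itgb1*, stood in AT2 cells at 260, 238 and 306 CPM in day 7 β1 fl/fl mice and at 216, 152 and 196 in day 7 β1 AT2-KO mice. At day 21 it stood at 361, 325 and 378 in β1 fl/fl and at 143, 180 and 148 in β1 AT2-KO mice. *Itgb1* fell by 0.63 ± 0.160 (log2, SE) at day 7 and fell by 1.27 ± 0.128 at day 21 (edgeR quasi-likelihood test with Benjamini-Hochberg adjustment over all genes, adjusted p = 0.0349 and 1.69e-07). Which part of *Itgb1* the floxed alleles lose is not given in the sources used here, and a 5′ count can include a transcript that lacks a later part. In endothelial cells *Itgb1* did not differ past the threshold (log2 fold change 0.01 ± 0.145 at day 7 and 0.10 ± 0.155 at day 21).

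RefSeq (GRCm38.p6) upstream sequences were found for 6 of the 10 genes. *Abca3*, the lipid transporter of the lamellar body membrane, and *Abca17*, a gene of the same family that points away from it, are shown because both were higher in β1 AT2-KO AT2 cells and their annotated starts lie 882 bases apart (GENCODE, GRCm38). *Sftpa1* and *Sftpb*, collectin and hydrophobic protein, are shown because they hold matches to CTCAAG, a core of NKX2-1 sites. Each window shown is the part of the 250 bases before the RefSeq start that lies outside the GENCODE gene, printed 5′ to 3′ on the gene's strand, with motif matches in capitals. They lie at chr17:24351773-24351949 (+ strand, *Abca3*), chr17:24351069-24351309 (- strand, *Abca17*), chr14:41131538-41131781 (+ strand, *Sftpa1*) and chr6:72304360-72304609 (+ strand, *Sftpb*).
Abca3: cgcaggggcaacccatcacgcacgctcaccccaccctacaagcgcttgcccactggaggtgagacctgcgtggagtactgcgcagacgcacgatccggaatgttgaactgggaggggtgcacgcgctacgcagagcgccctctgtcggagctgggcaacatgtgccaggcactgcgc
Abca17: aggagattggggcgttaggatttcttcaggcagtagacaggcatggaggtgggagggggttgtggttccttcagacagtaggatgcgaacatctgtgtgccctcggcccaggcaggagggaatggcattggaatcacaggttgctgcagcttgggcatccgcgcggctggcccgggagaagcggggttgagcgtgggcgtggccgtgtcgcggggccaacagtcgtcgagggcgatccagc
Sftpa1: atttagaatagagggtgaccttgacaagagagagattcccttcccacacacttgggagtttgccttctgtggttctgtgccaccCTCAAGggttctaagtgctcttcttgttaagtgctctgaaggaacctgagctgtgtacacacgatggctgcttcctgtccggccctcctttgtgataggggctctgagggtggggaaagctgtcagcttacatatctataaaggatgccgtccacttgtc
Sftpb: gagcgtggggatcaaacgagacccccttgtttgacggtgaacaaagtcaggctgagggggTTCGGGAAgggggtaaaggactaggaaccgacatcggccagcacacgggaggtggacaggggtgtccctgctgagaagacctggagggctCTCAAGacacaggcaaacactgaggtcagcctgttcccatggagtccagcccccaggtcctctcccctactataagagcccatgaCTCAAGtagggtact

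The letters searched on both strands were CTCAAG (NKX2-1), TGTTTAC (FOXA) and TTNNGNAA (CEBP), which were found in 13.3%, 3.17% and 36.8% of the 32851 RefSeq windows of 250 bases. *Sftpb* held 2 matches of CTCAAG and 1 of TTNNGNAA, and *Sftpa1* held 1 of CTCAAG. *Lamp3* held 1 of TGTTTAC, *Slc34a2* 1 of TTNNGNAA, and *Abca3*, *Abca17* and *Lyz2* none of the 3. The windows of *Abca3* and *Lyz2* were cut to 177 and 201 bases, shorter than the 250 of the background, and that of *Slc34a2* lies within its GENCODE gene. No match overlapped another, and a match is a description of letters, not of a bound site.

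The first question is whether the surfactant program of AT2 cells differs with the loss of β1 integrin 7 days after LPS. *Abca3* rose, *Lyz2* and *Sftpa1* fell, and the other 7 genes did not pass the test, among them *Sftpc*, which sets the gate and is given as a description. Over all 7845 genes tested, 0.778% were called higher and 0.829% lower. The 10 genes had a median log2 fold change of -0.17 beside 0.01 for all genes. At day 21 *Abca3* rose and *Lyz2* fell again, the others did not pass with edgeR, and 1.22% of all genes were called higher and 1.62% lower. DESeq2 called *Sftpb* and *Napsa* lower as well at day 21, with log2 fold changes of -0.21 and -0.25. The median there was -0.19 beside 0.02 for all genes.

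*Abca3* (ENSMUSG00000024130, chr17:24351950-24410201) stood in AT2 cells at 666, 726 and 651 CPM in the day 7 β1 fl/fl mice and at 1424, 1440 and 1413 in the day 7 β1 AT2-KO mice. At day 21 it stood at 794, 647 and 776 in β1 fl/fl mice and at 1728, 1711 and 1707 in β1 AT2-KO mice. The lowest β1 AT2-KO mouse stood above the highest β1 fl/fl mouse at both times. How many of all genes separate in this way was not counted, so such separation is a description, here and below. The rise was 1.98-fold at day 7 (log2 0.98 ± 0.129, adjusted p = 1.78e-05, edgeR quasi-likelihood test) and 2.18-fold at day 21 (log2 1.12 ± 0.123, adjusted p = 6.99e-07). Mouse 1 of the day 21 β1 AT2-KO library, with the highest *Xist* of that library, stood at 1728, beside 1711 and 1707 in mice 2 and 3. The part of sex in the rise was not tested. The rise lost its call only under the AT2 gate that used none of the 10 genes (log2 1.18 and 1.09, adjusted p = 0.0544 and 0.0941), where PBS mouse 1 enters the fit with *Abca3* at 144. Without that mouse the calls were kept. The gate without the 10 genes asked for 3 or more UMIs over 9 other AT2 markers. *Acoxl* and *Cxcl15*, lower in day 7 β1 AT2-KO AT2 cells, are among them. At day 7 it also took in airway cells. Club airway cell markers summed to 80527, 13165 and 75659 CPM in β1 fl/fl and 398, 1609 and 34969 in β1 AT2-KO mice. In the main gate these sums were 432, 13790 and 426, and 405, 1698 and 653.

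*Lyz2* (ENSMUSG00000069516, chr10:117277331-117282321), a lysozyme of AT2 cells and macrophages, stood at 23544, 23588 and 23268 CPM in day 7 β1 fl/fl and at 15636, 15968 and 17138 in day 7 β1 AT2-KO AT2 cells. At day 21 the values were 26724, 20531 and 25089 in β1 fl/fl and 16914, 17688 and 16042 in β1 AT2-KO mice. The groups did not overlap at either time. *Lyz2* fell by 0.61 ± 0.111 (log2) at day 7 and by 0.60 ± 0.110 at day 21 (edgeR, adjusted p = 0.00142 and 0.00184). The fall was not called with the gate without the 10 genes, with or without PBS mouse 1 (log2 -0.44 and -0.64 with it), with hashtags at 80% or more of tag counts (-0.42 and -0.62) or with PBS mice of fewer than 5 cells included (-0.64 and -0.61).

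Its close paralog *Lyz1*, a Paneth cell lysozyme whose sequence is near enough for reads to be lost or split between both, varied more among mice. In day 7 AT2 cells *Lyz1* stood at 2791, 3942 and 1101 in β1 fl/fl and at 126, 888 and 1925 in β1 AT2-KO mice. The groups overlapped and the log2 fold change of -1.48 ± 0.441 did not pass (edgeR, adjusted p = 0.0889). At day 21 it fell by 1.66 ± 0.434 (adjusted p = 0.0313, edgeR), from 2175, 1892 and 1680 to 909, 573 and 451. Of 11 macrophage markers, 1 to 4 had any UMI in the AT2 gate of a library. *Ptprc*, *Chil3*, *Marco*, *Adgre1*, *C1qa* and *C1qb* had none in any library. The sum of the 11 stood at 6.26 to 9.92 CPM in day 7 β1 fl/fl mice and 4.83 to 13.7 in day 7 β1 AT2-KO mice. It was 0 to 30.0 in PBS, 2.96 to 16.1 in day 21 β1 fl/fl and 6.26 to 11.95 in day 21 β1 AT2-KO mice.

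Among the collectins, *Sftpa1* (ENSMUSG00000021789, chr14:41131782-41136452) stood at 34291, 36815 and 37007 CPM in day 7 β1 fl/fl and at 32033, 27807 and 25632 in day 7 β1 AT2-KO mice. All β1 AT2-KO mice lay below all β1 fl/fl mice, and *Sftpa1* fell by 0.42 ± 0.101 (log2, edgeR, adjusted p = 0.0222). That call was made in 7 of the 18 other settings run, with adjusted p from 3.79e-06 to 0.637. At day 21 the values overlapped, at 31518, 32356 and 33073 in β1 fl/fl and 30300, 33025 and 28615 in β1 AT2-KO mice (log2 -0.16 ± 0.101, adjusted p = 0.478, edgeR). The genotype difference at day 21 minus that at day 7 was 0.26 ± 0.143, which did not pass (adjusted p = 0.570, edgeR). *Sftpd* (chr14:41172214-41185149) stood at 2853 to 4535 in day 7 β1 fl/fl and 3399 to 4648 in day 7 β1 AT2-KO mice, and its log2 fold change of 0.07 had a 95% interval of -0.20 to 0.34. At day 21 it was -0.20, with an interval of -0.47 to 0.07.

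The hydrophobic surfactant proteins follow. *Sftpc* (chr14:70520949-70524081) stood at 212230, 221600 and 183780 CPM in day 7 β1 fl/fl and 200730, 210620 and 212040 in day 7 β1 AT2-KO mice, and the ranges overlapped. At day 21 the values were 235140, 238120 and 224420 in β1 fl/fl and 207200, 210800 and 214920 in β1 AT2-KO mice. These ranges did not overlap. Since a cell had to hold *Sftpc* at 5% of UMIs to be counted, these levels are a description. With the gate that used none of the 10 genes, *Sftpc* averaged 160510 ± 55854 in day 7 β1 fl/fl and 185250 ± 7489 in day 7 β1 AT2-KO mice. At day 21 it averaged 232560 ± 7204 and 209160 ± 3156 with that gate (SD, n = 3 each). At day 7 that gate also took in airway cells, as given above. The log2 fold changes of *Sftpc* with that gate were 0.08 ± 0.217 at day 7 and -0.27 ± 0.217 at day 21. Neither passed (edgeR quasi-likelihood test, adjusted p = 0.927 and 0.675). *Sftpb* (chr6:72304610-72314371) stood at 9476 to 11718 in day 7 β1 fl/fl and 9461 to 9961 in day 7 β1 AT2-KO mice. At day 21 it stood at 12498 to 13240 and 11981 to 12256, ranges that did not overlap. Its log2 fold changes were -0.18 (-0.38 to 0.03) and -0.18 (-0.39 to 0.02).

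The proteases that trim their precursors did not pass either. *Napsa*, an aspartic protease (chr7:44572380-44586862), stood at 2819 to 3462 in day 7 β1 fl/fl and 2919 to 3082 in day 7 β1 AT2-KO mice, with a log2 fold change of -0.16 (-0.39 to 0.06). At day 21 its ranges of 2929 to 3116 and 2677 to 2834 did not overlap (log2 -0.22, -0.44 to 0.00). *Ctsh*, a cysteine protease (chr9:90054152-90076089), had 744, 895 and 972 in day 7 β1 fl/fl and 1229, 956 and 912 in day 7 β1 AT2-KO mice, and 760, 845 and 741 against 632, 765 and 660 at day 21. Its log2 fold change was 0.17 ± 0.138 at day 7 and -0.27 ± 0.132 at day 21, and the difference between times of -0.44 ± 0.191 did not pass (edgeR quasi-likelihood test, adjusted p = 0.421).

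Of the other lamellar body and surface genes, *Lamp3*, a membrane protein of lamellar bodies (chr16:19653378-19706375), stood at 2152, 2015 and 2006 in day 7 β1 fl/fl and 1756, 1758 and 1911 in day 7 β1 AT2-KO mice. These did not overlap, but the log2 fold change of -0.27 ± 0.126 did not pass (edgeR, adjusted p = 0.367). At day 21 *Lamp3* had 1773, 1351 and 1613 in β1 fl/fl and 1752, 1872 and 1943 in β1 AT2-KO mice (log2 0.14 ± 0.124). *Slc34a2*, a sodium-dependent phosphate transporter (chr5:53038081-53071664), stood at 3798 to 4273 and 3720 to 3905 at day 7 and at 4542 to 5026 and 4856 to 5310 at day 21. Its log2 fold changes were -0.18 (-0.40 to 0.04) and -0.02 (-0.24 to 0.20). None of the 10 genes passed the test of the genotype difference at day 21 minus day 7 (edgeR; 2 had an unadjusted p under 0.05, and DESeq2 called none), where 0.306% of genes were called higher and 0.217% lower.

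**Figure D1:**
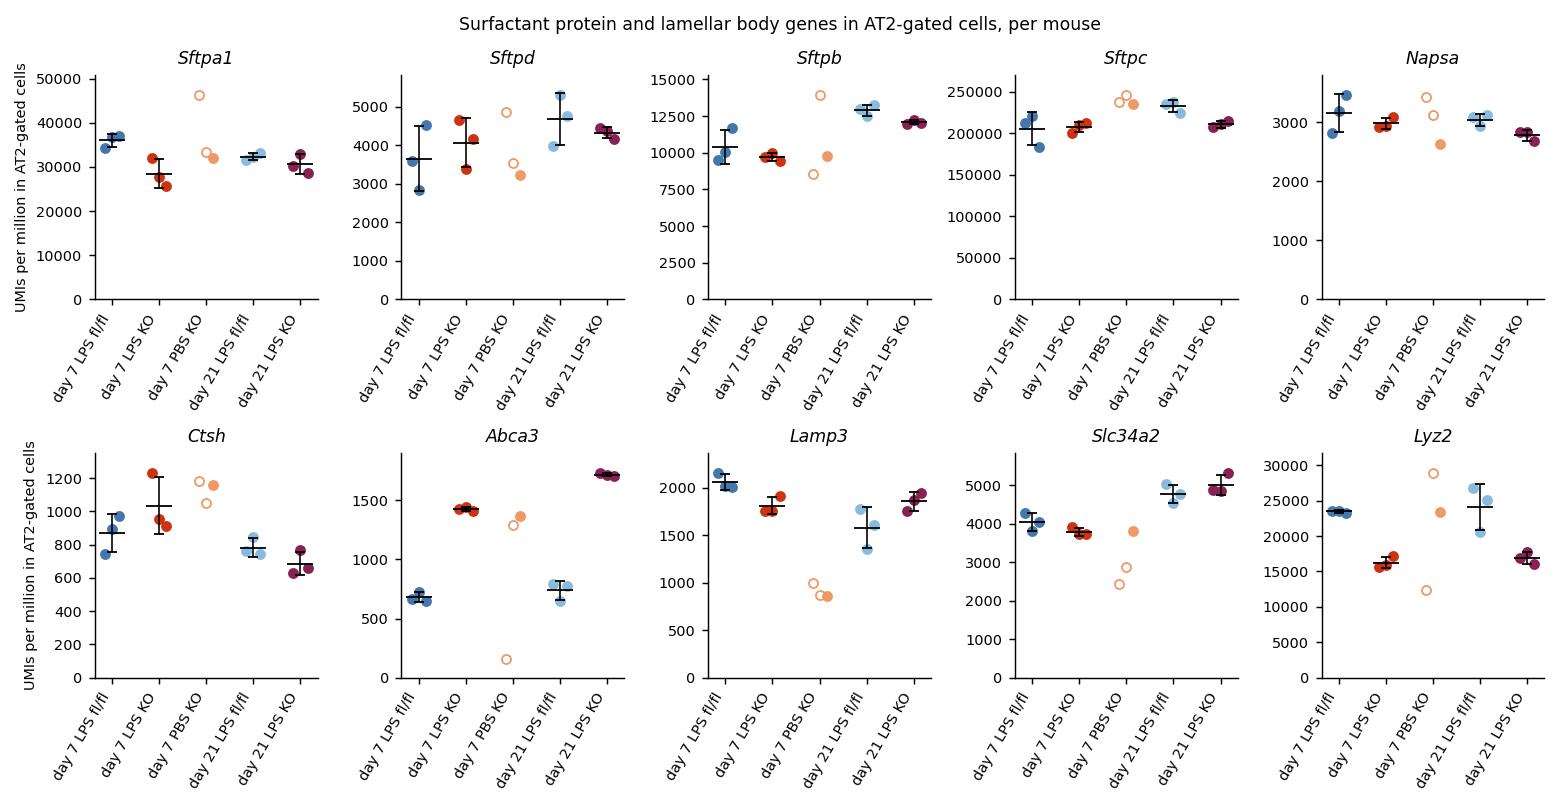
CPM in AT2-gated cells for each of the 10 genes (linear axes from 0), 1 point per mouse, with bars for the mean and SD of mice with at least 5 AT2 cells and open points for mice with fewer. In LPS-treated β1 AT2-KO mice *Abca3* lies above and *Lyz2* below all β1 fl/fl mice at both times, and PBS mouse 1 has an *Abca3* of 158.

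**Figure D2:**
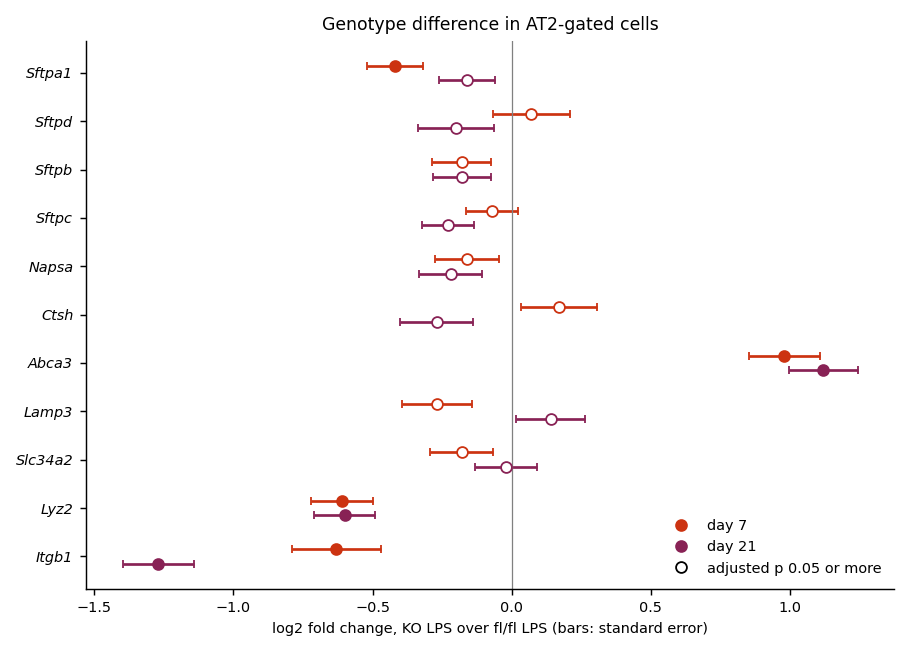
Log2 fold change of LPS-treated β1 AT2-KO over β1 fl/fl in AT2-gated cells at days 7 and 21 (points, bars are the standard error), with filled points at an adjusted p under 0.05. *Abca3* (0.98 and 1.12) and *Lyz2* (-0.61 and -0.60) passed at both times and *Sftpa1* (-0.42) at day 7, and *Sftpc*, which sets the gate, is drawn as a description.

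Added up, the 10 genes held 29.0 ± 1.73% (SD, n = 3) of AT2 UMIs in day 7 β1 fl/fl and 27.7 ± 0.294% (n = 3) in day 7 β1 AT2-KO mice. This difference of -1.29 percentage points became 2.22 points with the gate that used none of the 10 genes. That gate also took in airway cells at day 7, as given above, and their part in the change was not tested. At day 21 the 10 genes held 31.7 ± 0.528% in β1 fl/fl and 28.7 ± 0.389% in β1 AT2-KO mice, a difference of -3.05 points. Most of this sum is *Sftpc*, which sets the gate, so the sum is given as a description and no test of it is used. Without *Sftpc* the other 9 held 8.44 ± 0.308% and 6.96 ± 0.323% at day 7 and 8.49 ± 0.341% and 7.60 ± 0.316% at day 21 (two-sided exact permutation test over mice, p = 0.1 and adjusted p = 0.1 at each time). With 3 mice against 3, 0.1 is the smallest p this test can give, and the adjustment covered these 2 comparisons. The test was also run on the other measures of this paragraph, outside that adjustment, and those p are not used. With the gate that used none of the 10 genes, *Sftpa1* averaged 28215 and 25983 CPM and *Lyz2* 18087 and 14475 at day 7. The rest of the 9 averaged higher in β1 AT2-KO mice with that gate, so the day 7 gap of the 9 was smaller. Median UMIs per AT2 cell, averaged over mice, were 10180 and 7974 at day 7 and 11100 and 8314 at day 21, in β1 fl/fl and β1 AT2-KO. The sum of 10 AT1 markers stood at 1560 ± 185 and 2706 ± 399 CPM at day 7 and at 1934 ± 97.1 and 1985 ± 86.2 at day 21. The sum of 8 Krt8+ ADI markers, genes of an intermediate between AT2 and AT1 cells, stood at 1648 ± 333 and 2415 ± 606 at day 7 and at 1287 ± 281 and 2004 ± 147 at day 21. Mitochondrial UMIs averaged 2.00 ± 0.00440% and 2.06 ± 0.139% at day 7 and 2.31 ± 0.256% and 1.73 ± 0.0375% at day 21. The part of depth, mitochondrial share and these markers in the surfactant gene results was not tested.

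Single cells of a library varied widely in these transcripts. *Sftpc* took a median of 19.9% of a day 7 β1 fl/fl AT2 cell's UMIs and 20.2% of a β1 AT2-KO cell's, with the 10th and 90th percentiles at 10.5 and 28.8% and at 9.33 and 28.8%. *Lyz2* had a median of 2.17% and a 10th percentile of 0.95% in day 7 β1 fl/fl cells, and a median of 1.26% and a 10th percentile of 0.0954% in day 7 β1 AT2-KO cells. *Sftpa1* had medians of 3.23 and 2.41%, with 10th percentiles of 1.964 and 0.986%. At day 21 the 10th percentile of *Lyz2* was 0.972% in β1 fl/fl and 0.428% in β1 AT2-KO cells. These percentiles pool the cells of a library and carry no test.

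Drawn down to 2000 UMIs per cell, which left out 2 and 9 AT2 cells, *Abca3* was found in 78 of 117 day 7 β1 fl/fl AT2 cells (66.7%, exact 95% interval 57.4 to 75.1%) and in 322 of 346 β1 AT2-KO AT2 cells (93.1%, 89.9 to 95.5%). Before thinning the shares were 96.6 and 99.2%. The thinned share in endothelial cells was 8.34% in β1 fl/fl and 24.1% in β1 AT2-KO (11.8 and 31.3% unthinned, at medians of 2398 and 2444 UMIs). Thinning left out 2565 of 6508 and 1772 of 4778 endothelial cells at day 7, and 513 of 1187 and 454 of 879 at day 21, so these shares describe the deeper cells. At day 21 the thinned AT2 shares were 78.3 and 95.7% and the endothelial shares 7.42 and 34.1%. The intervals cover counting error only.

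Injury was addressed by LPS against PBS in β1 AT2-KO mice at day 7. *Lamp3* rose, from 865 CPM in PBS mouse 3 to 1756, 1758 and 1911 in the LPS mice, by 1.05 ± 0.224 (log2, edgeR, adjusted p = 0.0430). PBS mice 1 and 2, outside the fit with 4 and 2 AT2 cells, stood at 1000 and 871, also below every LPS mouse. The other 9 genes did not pass, and 0.0382% of all genes were called higher and 0.127% lower. Of these 9, *Lyz2* had a log2 fold change of -0.54 ± 0.153 (edgeR, adjusted p = 0.304) and *Abca3* one of 0.04 ± 0.199. The PBS group rests on 1 mouse of 9 AT2 cells, assumed to vary like the other groups, and all genes tested had a median log2 fold change of 0.23, against -0.03 for the 10 genes. The *Lamp3* call was made in 10 of the 15 other settings that gave a value, and adjusted p ranged from 0.00133 to 0.659.

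In endothelial cells the same transcripts, apart from *Abca3*, were used as the level of free surfactant RNA in each library. *Sftpc* stood at 3252, 1714 and 1231 CPM in day 7 β1 fl/fl endothelial cells, at 3674, 3924 and 2574 in day 7 β1 AT2-KO, at 721, 263 and 515 in PBS β1 AT2-KO, at 4576, 2305 and 2381 in day 21 β1 fl/fl and at 14229, 16436 and 14824 in day 21 β1 AT2-KO mice. AT2-gated cells made up 1.43, 4.90, 0.30, 7.91 and 40.8% of kept cells in these libraries. LPS over PBS in β1 AT2-KO raised 9 of the 10 genes in endothelial cells, where 14.2% of all genes were called higher, with log2 fold changes of 2.13 (*Ctsh*) to 3.60 (*Lamp3*) and 2.66 ± 0.357 for *Sftpc* (edgeR, adjusted p = 2.62e-05). *Abca3* was the exception (0.24 ± 0.272, adjusted p = 0.566, edgeR), and without PBS mouse 1 its value was -0.16. The share of AT2 cells was also higher in the LPS than in the PBS β1 AT2-KO library (4.90 and 0.30%), and its part in the difference was not tested.

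In endothelial cells *Abca3* stood at 47.7, 48.3 and 43.1 CPM in day 7 β1 fl/fl, at 153, 148 and 137 in day 7 β1 AT2-KO, at 52.8, 56.6 and 41.8 in day 21 β1 fl/fl and at 248, 231 and 241 in day 21 β1 AT2-KO mice. All β1 AT2-KO mice lay above all β1 fl/fl mice. At day 7 *Abca3* passed the test, rising by 1.62 ± 0.291 (log2, edgeR, adjusted p = 0.00334), where 1.66% of all genes were called higher. None of the other 9 genes passed then, and the count of 1 became 3 without β1 AT2-KO mouse 3 and 2 without β1 fl/fl mouse 1. The difference between *Abca3* and the other genes was not tested. At day 21 *Abca3* (2.26 ± 0.439, adjusted p = 0.0238), *Sftpc* (2.29 ± 0.353, 0.00450), *Sftpa1* (2.08 ± 0.344, 0.00722) and *Sftpd* (2.32 ± 0.377, 0.00670) rose by the same test, where 0.256% of all genes were called higher. The day 21 count was 0 without mouse 2 of β1 fl/fl and 7 without mouse 1, so it rests on these mice. In day 7 LPS mesenchymal cells (at least 2 *Col1a2* UMIs) *Abca3* stood at 15.5 CPM in β1 fl/fl and 63.3 in β1 AT2-KO. *Sftpc* stood there at 854.6 and 1640.5. In ciliated cells *Abca3* stood at 73.2 and 326 (71 and 9 cells), and in club cells at 98.7 and 424 (15 and 5 cells). These gates were not tested, and free RNA was not subtracted from them.

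Set against the AT2 level of the same library, endothelial *Abca3* came to 7.28% in day 7 β1 fl/fl, 10.3% in day 7 β1 AT2-KO, 9.53% in PBS β1 AT2-KO, 6.55% in day 21 β1 fl/fl and 15.1% in day 21 β1 AT2-KO. The corresponding values for *Sftpc* were 1.42, 1.99, 0.297, 1.28 and 7.48%. In the PBS library, where free *Sftpc* was lowest, the other 8 genes lay between 0.219% (*Slc34a2*) and 0.492% (*Ctsh*). Subtracting from each mouse the part that the *Sftpc* ratio gives left 39.7 ± 2.72 CPM of *Abca3* in day 7 β1 fl/fl and 123 ± 3.64 in day 7 β1 AT2-KO endothelial cells (SD, n = 3), and 40.4 ± 8.78 and 117 ± 16.5 at day 21. The same subtraction left means of -31.3 to 9.80 for the other 8 genes at day 7. At day 21 it left -45.1 to 92.2 in β1 fl/fl and -534 (*Sftpa1*) to -10.0 (*Ctsh*) in β1 AT2-KO, where the *Sftpc* ratio takes off more than was there and the size of *Abca3*'s remainder is less certain.

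**Figure D3:**
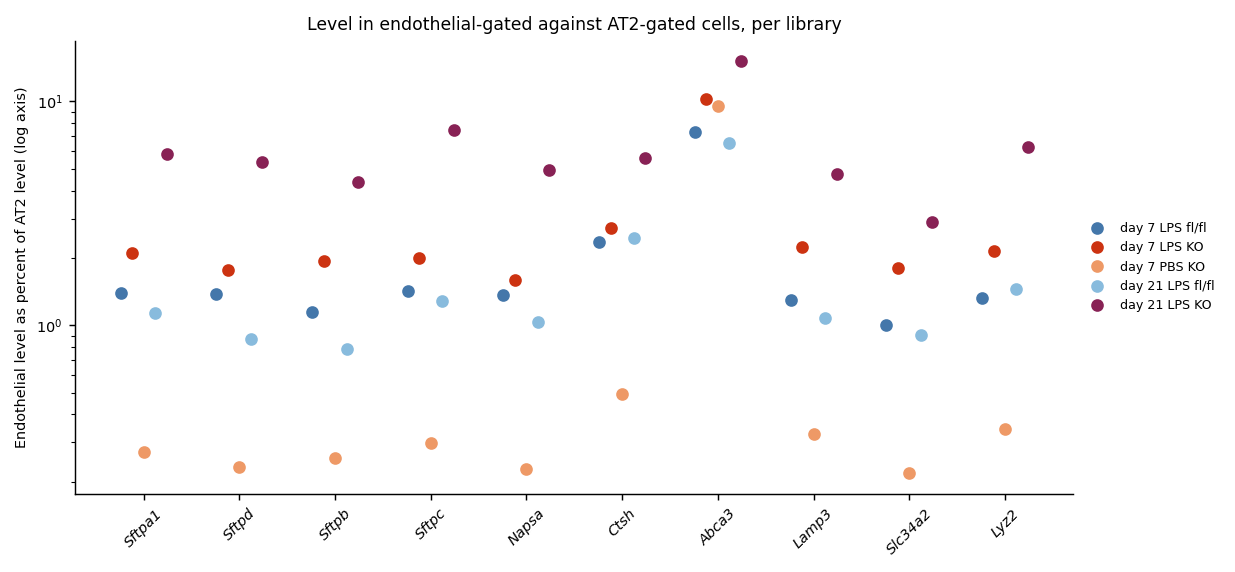
Level in endothelial-gated cells as a percentage of the level in AT2-gated cells (log axis), 1 point per library, for each of the 10 genes. *Abca3* lies at 6.55 to 15.1% in all libraries, while the PBS library lies at 0.219 to 0.492% for the other 9 genes.

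The neighbourhood of *Abca3* was looked at after these values were seen. Of 59 genes listed within 500 kb, 29 were tested in AT2 cells. *Abca17*, *Abca3* and *Eci1* were called higher and *Rps2* lower at both times, and *Hagh* lower at day 21 as well (log2 -0.79, adjusted p = 0.0225, edgeR). Over all genes 0.778% were called higher and 0.829% lower at day 7, and 1.22% and 1.62% at day 21. *Abca17* (ENSMUSG00000035435, chr17:24264259-24351068) had 3 UMIs in all day 7 β1 fl/fl AT2 cells of the 3 mice (3.44 CPM) and 178 in the β1 AT2-KO mice (107 CPM), a ratio of 31.0 with a counting interval of 10.4 to 152. At day 21 it had 14 and 815 UMIs, a ratio of 11.7 (6.92 to 21.4). *Abca17* was called at both times (edgeR, adjusted p = 1.09e-07 and 8.28e-09). In endothelial cells it was called higher at day 7 (edgeR, adjusted p = 0.0303), with 2 UMIs in β1 fl/fl and 28 in β1 AT2-KO mice, a ratio of 18.4 (4.64 to 159). It had 0 and 5 UMIs there at day 21 and did not pass (adjusted p = 0.390, edgeR). In AT2 cells of PBS mouse 1 it was at 0, against 60.1 and 79.9 in mice 2 and 3.

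*Eci1*, an enzyme of fatty acid oxidation that starts 16.4 kb past the end of *Abca3*, stood in AT2 cells at 83.3, 93.9 and 52.7 CPM in day 7 β1 fl/fl and at 222, 227 and 182 in day 7 β1 AT2-KO mice. Its log2 fold change was 1.35 at day 7 and 1.55 at day 21 (edgeR, adjusted p = 6.88e-05 and 1.69e-07). In endothelial cells it was 0.16 and 0.27 and did not pass. *Rps2*, a ribosomal protein gene 308 kb away with many near-identical copies in the genome, stood at 1067, 1007 and 1049 in day 7 β1 fl/fl and at 548, 521 and 490 in day 7 β1 AT2-KO AT2 cells. It fell by 1.09 and 1.14 in AT2 cells (adjusted p = 3.84e-06 and 3.27e-07, edgeR) and by 0.85 and 0.99 in endothelial cells (0.0161 and 0.0368). Endothelial *Rps2* in PBS mouse 1 was 735, against 418 and 384 in PBS mice 2 and 3 and 816 to 1056 in day 7 β1 fl/fl mice. *Rnps1*, between *Abca3* and *Eci1* at 4.4 kb, had log2 fold changes of 0.76 and 0.30 that did not pass.

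**Figure D4:**
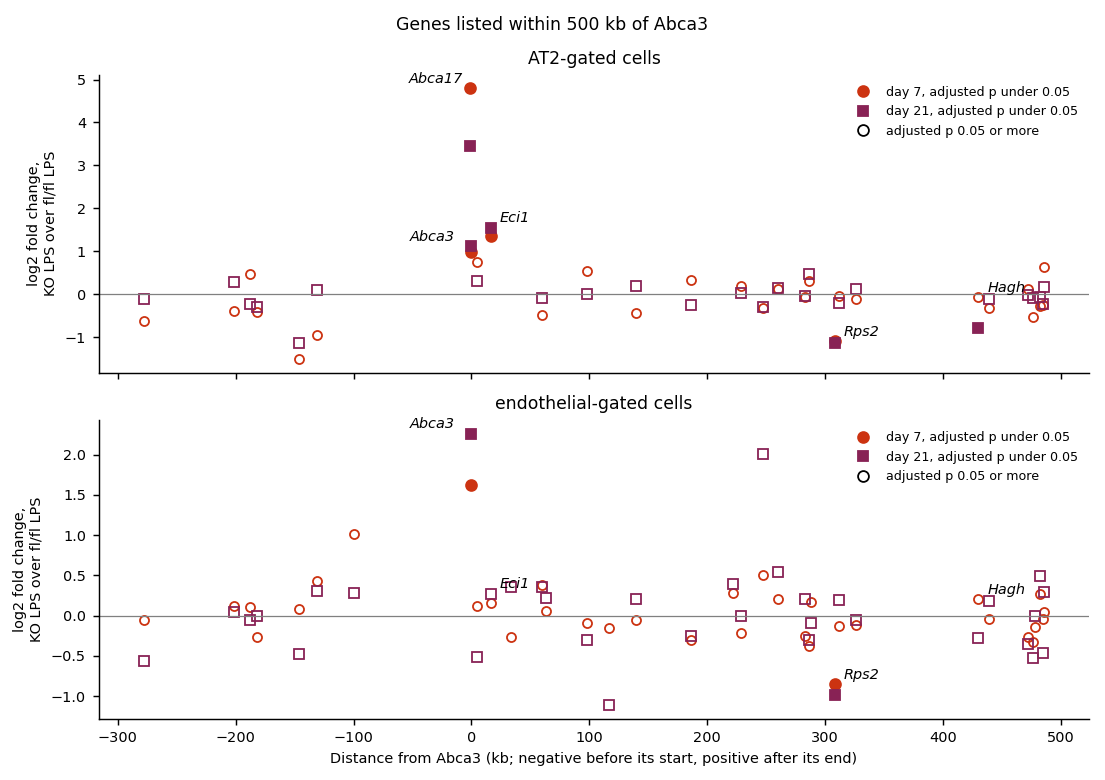
Log2 fold change of LPS-treated β1 AT2-KO over β1 fl/fl against distance from *Abca3* in kb, for genes tested in AT2-gated (upper) and endothelial-gated (lower) cells, with circles for day 7, squares for day 21 and filled points at an adjusted p under 0.05. *Abca17*, at or near 0 UMIs in β1 fl/fl endothelial cells, is left out of the lower panel (2 against 28 UMIs at day 7, called), and *Rps2* lies below 0 in both panels.

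Of neighbours of the other genes, *Lyz1*, which lies beside *Lyz2*, fell at day 21 as given above. *Mat2a* and *Usp39* beside *Sftpb*, *Bmp1* and *Lgi3* beside *Sftpc*, *Nr1h2* beside *Napsa*, *Sel1l3* beside *Slc34a2* and *Morf4l1* beside *Ctsh* had log2 fold changes of -0.29 to 0.25 at day 7 and -0.44 to 0.05 at day 21, and none of these passed. No neighbour of *Sftpa1*, *Sftpd* or *Lamp3* was tested.

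Genes of surfactant lipid synthesis, which supply the phospholipid that *Abca3* moves, had 5 of 22 tested members lower and 0 higher in day 7 β1 AT2-KO AT2 cells, with a median log2 fold change of -0.38. *Fabp5*, a fatty acid carrier, fell by 1.64 ± 0.216 (1550 ± 280 to 521 ± 216 CPM). *Chka*, choline kinase, fell by 0.87 ± 0.185, *Scd1*, a fatty acid desaturase, by 0.82 ± 0.175 and *Elovl1*, a fatty acid elongase, by 0.80 ± 0.132 (edgeR, adjusted p = 1.78e-05, 0.00826, 0.00845 and 0.000482). At day 21 *Fabp5* fell by 1.71 ± 0.208 (1300 ± 336 to 421 ± 37.1) and no other of the 22 passed, with a median of -0.12. *Scd1* then stood at 4960 ± 1350 and 5020 ± 857. Of 22 genes, none passed for LPS over PBS in β1 AT2-KO (edgeR; 2 had an unadjusted p under 0.05).

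Lamellar body and lysosome genes outside the 10 had 1 of 26 lower at day 7, *Rab27a*, a GTPase of secretory granules (-0.92 ± 0.229, 113 ± 15.5 to 57.1 ± 15.3), and 1 higher at day 21, *Scarb2*, a lysosomal membrane protein (0.58 ± 0.122, 174 ± 5.30 to 276 ± 20.0). Their medians were 0.01 and -0.05. The most abundant, *Npc2*, a lysosomal sterol carrier, had log2 fold changes of -0.15 ± 0.118 and -0.15 ± 0.117. Genes of surfactant protein processing and turnover had none of 14 called at day 7 (edgeR; 2 with an unadjusted p under 0.05) and 1 lower at day 21, *Pla2g1b*, a secreted phospholipase (-0.64 ± 0.171, adjusted p = 0.0350, edgeR).

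Of 22 regulators of surfactant genes tested, 1 fell at day 7, *Foxa2*, a forkhead factor of lung epithelium (-1.16 ± 0.297, 58.2 ± 17.6 to 26.1 ± 3.55), and 1 rose at day 21, *Nfatc3*, a calcineurin-responsive factor (1.24 ± 0.287, 12.5 ± 4.86 to 35.0 ± 3.90). *Nkx2-1*, a homeodomain factor that drives surfactant genes, stood at 318 ± 20.2 and 393 ± 22.5 at day 7 and at 370 ± 17.7 and 396 ± 37.9 at day 21 and did not pass. *Etv5*, an ETS factor of AT2 cells, had log2 fold changes of 0.07 ± 0.156 and -0.31 ± 0.132, neither of which passed.

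Other AT2 markers had 1 of 13 higher and 3 lower at day 7, and 3 higher and 4 lower at day 21. *Cd74*, a chaperone of MHC class II, rose by 0.46 ± 0.119 and 0.50 ± 0.119. *Acoxl* (-1.99 ± 0.251 and -1.49 ± 0.184) and *Bex2* (-2.20 ± 0.352 and -3.09 ± 0.356) fell at both times. *Cxcl15*, a lung chemokine, fell by 0.61 ± 0.128 at day 7 (16000 ± 3320 to 11000 ± 928), and at day 21 its -0.30 ± 0.128 did not pass. *Il33*, an alarmin, rose by 0.98 ± 0.185 and *Lcn2*, a siderophore-binding protein, by 0.81 ± 0.206 at day 21. The share of genes called over the whole table, given above, is the background for these counts, and the lists were chosen with earlier results of these data known.

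The genes whose level over mice was most like that of *Abca3* were *Eci1* (Pearson r = 0.964), *Ezr* (0.922) and *Serpinb9* (0.837), among 1194 genes with a mean of at least 100 CPM in 13 mice. *Abca3* falls into separate ranges by genotype, so these r mostly rank genes by that split. *Sftpc* was most like *Acaa2* (0.869), *Stard10* (0.806) and *Rpl14* (0.804), and *Sftpa1* most like *Atp1b1* (0.779), *Mylk* (0.762) and *Cox6a2* (0.735). Among the 10 genes themselves *Sftpb* and *Slc34a2* had the highest r (0.83), while *Slc34a2* and *Ctsh* (-0.81) and *Lyz2* and *Abca3* (-0.79) had the lowest. Mice of a library share its preparation and depth, and these r are descriptions.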

How the data were processed

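The deposited matrices hold counts: UMIs per gene and barcode that the authors made with Cell Ranger 3.1 (mm10) from 5′ libraries, with hashtag counts; the submitters' processing notes also name Seurat 4.1.0. The free RNA correction, quality filter and doublet removal of the authors are not in these counts. Cells were filtered and gated as described, and hashtags and *Gm42418* were left out of totals. A hashtag was assigned at 4 times its background with no other so raised (50.3 to 78.7% of kept cells). UMIs were summed per mouse with at least 5 gated cells and tested with edgeR 4.0.16 (quasi-likelihood, TMM, filterByExpr, 1 fit over 5 groups, R 4.3.3), adjusted over all genes by Benjamini-Hochberg, threshold 0.05. Exact permutation tests went over all splits of the mice with numpy 2.4.6, and exact intervals used scipy 1.17.1. Fits were tested on simulated data. Depth was 8261213 to 28855834 UMIs in kept cells per library. Intervals of log2 fold changes come from the SE of the edgeR fit over mice, and the other intervals cover counting error only.

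The 10 genes and all lists were chosen with earlier results of these data known. Named were all 10 genes, *Itgb1*, of each list the called genes (at most 4 with the largest change) and the 2 most abundant, the neighbours tested (1 is not reported here), and the 3 genes most like *Sftpc*, *Sftpa1* and *Abca3*. *Abca3*'s wider region was named after its values were seen. Alternatives were DESeq2 1.42.0, other gates, hashtag rules, filters and scalings, Scrublet doublets (scanpy 1.11.5) left out, free RNA subtracted and each mouse left out. Gene positions are GENCODE vM21 (GRCm38), with 99.6% of IDs matched.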

Additional observations from a re-analysis of the deposited data

Results flagged for a closer look

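*Chka*, choline kinase of phosphatidylcholine synthesis, was flagged because its genotype difference in AT2 cells was not the same at both times. It stood at 257 ± 17.2 CPM (UMIs per 1000000) in day 7 β1 fl/fl and 147 ± 42.3 in day 7 β1 AT2-KO mice, and at 189 ± 41.7 and 240 ± 10.5 at day 21 (SD, n = 3 each). The log2 fold change at day 21 minus that at day 7 was 1.13 ± 0.241 (edgeR quasi-likelihood test, Benjamini-Hochberg adjusted p = 0.0224). The day 21 libraries also differ from day 7 in having sorted EPCAM+ cells added, and the part of that difference was not tested.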

How the results depend on the processing

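No paired analysis was possible because the labels give the mice of different groups no shared replicate numbers. With the AT2 gate that used none of the 10 genes, no member was called in any AT2 comparison: counts went from 1 to 0 higher and 2 to 0 lower at day 7, from 1 to 0 higher and 1 to 0 lower at day 21, and from 1 to 0 higher for LPS over PBS. With PBS mouse 1 left out of that fit, an alternative added after seeing the data, *Abca3* was called at both times (1 higher each), and the lower counts and LPS over PBS stayed at 0. The day 7 lower count of 2 became 0 with hashtags at 80% of tag counts and with mice of at least 1 cell, and 1 with *Sftpc* at 10% or more, without the low count filter and with only the groups compared. Leaving out each mouse gave 1 to 2 (1 without β1 AT2-KO mouse 2 or 3 or β1 fl/fl mouse 1 or 2). LPS over PBS had 0 higher with hashtags at 80% and with only the groups compared, 0 to 1 over mice left out (0 without LPS β1 AT2-KO mouse 3), and 1 lower with DESeq2. At day 21 the lower count of 1 became 4 with DESeq2 and 2 with free RNA subtracted, each count including *Sftpc*, which sets the gate and is no test, and 0 with hashtags at 80% and with mice of at least 1 cell. In endothelial cells the day 7 count of 1 ranged from 1 to 3 over mice left out (3 without β1 AT2-KO mouse 3, 2 without β1 fl/fl mouse 1). The day 21 count of 4 was 7 with DESeq2 and ranged from 0 to 7 (0 without β1 fl/fl mouse 2, 7 without mouse 1). The summed share of the 10 genes went from -1.29 to 2.22 percentage points at day 7 with the gate without them, and from -3.05 to -4.64 at day 21 with hashtags at 80%. At day 7 the gate without the 10 genes also took in airway cells, as given above. The cause of the changes in these counts and in the summed share was not tested. The 26 PBS AT2 cells limit what LPS over PBS can show.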
